A study of Homo sapiens with 12 samples.

Results

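The comparison described here set libraries labelled siPFDN5 against libraries labelled siPFDN2, both taken 90 min after serum was given back to starved HCT116 cells, a human colon carcinoma line. It used 4 of the 12 libraries of the series, chosen by their labels: 2 replicates with the PFDN5 siRNA and 2 with the PFDN2 siRNA. The cells had received 1 siRNA per target by lipid transfection, were starved of serum from 24 h after transfection for 48 h, and were sampled before serum or 90 min after it. Libraries with a control siRNA (siControl), 2 per time point, and the siPFDN2 and siPFDN5 libraries before serum gave reference values. Total RNA was depleted of 18S rRNA before library preparation, so unspliced RNA was read along with mature RNA. The labels do not say whether replicates came from separate cultures, so p-values measure the spread between these samples, which may be technical.

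Prefoldin is a chaperone complex that captures unfolded actin and tubulin and hands them to the chaperonin TRiC (also called CCT) for folding. PFDN2 and PFDN5 encode different subunits of the canonical complex. PFDN2 protein is also part of the prefoldin-like complex that works with the R2TP assembly factors, whereas PFDN5 is not. Prefoldin subunits are also found in the nucleus, where roles in transcription and splicing have been described.

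The siRNAs are shown because they define the groups. Each line gives the strand that matches the target messenger RNA, 5′ to 3′. Capitals mark the 7 bases that pair with the guide's seed, bases 2 to 8 of the opposite strand.
siPFDN5: agagaagacagCUGAGGAu
siPFDN2: cagccuagugaUCGAUACa
siControl: cguacgcggaaUACUUCGa
In GENCODE release 29 (GRCh38), the siPFDN5 sequence spans a splice junction of PFDN5, between positions 53297918 and 53298056 of chromosome 12 on the plus strand. In PFDN5-202 this is coding sequence in exons 4 and 5 of 6. The siPFDN2 sequence spans the coding junction of exons 2 and 3, of 4, in the coding transcript of PFDN2, between positions 161102156 and 161102289 of chromosome 1 on the minus strand.

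Gene-body totals were 81124875 and 90740656 counts in the siPFDN5 libraries and 67060151 and 91641079 in the siPFDN2 libraries. Replicates of siPFDN5 after serum differed with an SD of 0.146 on the log2 scale across 12325 genes, and those of siPFDN2 after serum with an SD of 0.115. The SD was 0.296 for siControl after serum and 0.668 for siPFDN2 before serum. Genes of the mitochondrial genome took 3.83% and 4.07% of gene-body counts in the siPFDN5 libraries, against 8.70% and 4.80% in the siPFDN2 libraries. Levels below are in CPM, counts divided by library totals adjusted with edgeR's TMM factors, which were computed over all 12 libraries. Gene-body, exon and intron counts were each divided by totals of their own kind. Their levels are therefore on separate scales, and a gene's exon or intron CPM can exceed its gene-body CPM. A log2 difference is siPFDN5 minus siPFDN2 from the edgeR fit to the 4 libraries compared; a gene is called where that difference passed an adjusted p of 0.05. The 8 epithelial and colon markers examined summed to 2871 to 2890 CPM in the siPFDN5 and 2381 to 2405 CPM in the siPFDN2 libraries. Such a sum cannot tell HCT116 from other epithelial cells, and its most abundant members can carry it. Of the 7 tested, 3 were called higher (KRT18, KRT8 and KRT19) and CDH1 was called lower. The 14 markers of fibroblasts, blood and endothelium summed to 9.83 to 12.5 and 10.0 to 12.3 CPM. COL1A2 and CD3E were at 0 in both siPFDN5 libraries and LUM in both siPFDN2 libraries. Of the 7 tested, LYZ alone was called, lower, at 0.14 and 0.14 against 0.53 and 0.55 CPM.

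The 2 targeted genes were examined first. PFDN2 gene-body counts were 23.1 and 28.7 CPM in the siPFDN5 libraries, 8.73 and 9.47 CPM in the siPFDN2 libraries, and 19.5 and 16.3 CPM in siControl after serum. Both siPFDN2 libraries lay below every other library after serum, and both siPFDN5 libraries lay above siControl. The PFDN2 log2 difference was 1.49 ± 0.10 (SE, n = 2 per group, edgeR adjusted p = 9.6e-08). Over exons PFDN2 differed by 1.69, whereas its intron counts differed by 0.07 (adjusted p = 0.82). PFDN2 overlaps NIT1 in the annotation, so reads in the shared stretch could not be assigned between them.

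PFDN5 gene-body counts were 67.5 and 68.6 CPM in the siPFDN5 libraries against 81.8 and 81.1 CPM in the siPFDN2 libraries. The siControl libraries after serum held 67.9 and 74.0 CPM, so gene-body counts did not place the siPFDN5 libraries below siControl. The PFDN5 log2 difference was -0.28 ± 0.06 (SE, adjusted p = 0.0017). With the spread shared over all 12 libraries its adjusted p was 0.68. Over exons the siPFDN5 libraries held 78.0 and 79.6 CPM of PFDN5, siPFDN2 100.4 and 98.2 CPM, and siControl 87.3 and 90.1 CPM. The authors' estimated counts for the transcript PFDN5-202 were divided by each library's total of estimated counts, without the TMM adjustment. On that scale they came to 67.9 and 75.5 CPM in siPFDN5, 83.5 and 91.0 in siPFDN2, and 85.8 and 86.4 in siControl. Before serum the siPFDN5 libraries held 41.0 and 44.2 CPM against 76.2 and 66.9 CPM in siPFDN2. After serum, then, PFDN5 in the siPFDN5 libraries lay below siControl in exons but not in gene bodies, a difference that was not tested. PFDN5-202 also lay below siControl, but on its unadjusted scale, so its levels cannot be set directly beside those of gene bodies. The name "siPFDN5" below is the label of these libraries.

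**Figure D1:**
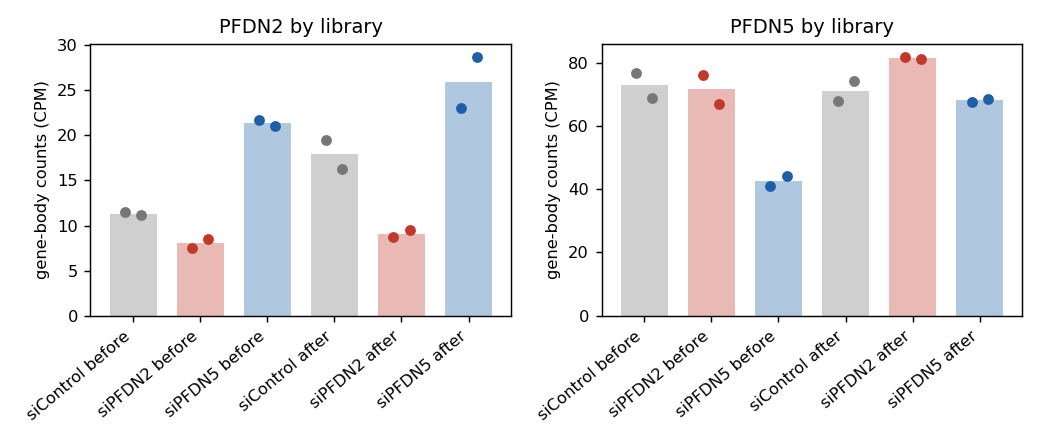
Gene-body counts (CPM) of PFDN2 (left) and PFDN5 (right) in all 12 libraries; points are libraries and bars are means of 2. After serum, PFDN2 was 8.73 and 9.47 CPM in siPFDN2 against 23.1 and 28.7 CPM in siPFDN5, while PFDN5 in siPFDN5 (67.5 and 68.6 CPM) lay beside siControl (67.9 and 74.0 CPM).

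The 4-library comparison called 5661 of 24916 genes (22.7%), 3146 higher (12.6%) and 2515 lower (10.1%) in siPFDN5. Most calls were small. Their median absolute log2 difference was 0.35, and 4147 were under 0.5. By at least 1 on the log2 scale, 145 genes were higher and 306 lower. Both libraries of 1 group lay above both of the other in 61.8% of genes. The number of calls depended on the libraries used: 2401 genes were called without siPFDN2 replicate 1 and 3149 without siPFDN2 replicate 2. With the spread shared over all 12 libraries 5 genes passed (0.0179%), and 1224 (4.22%) passed when siPFDN2 before serum replicate 2 was left out (the 11-library fit). The 5 genes were PFDN2, CPA4, SNHG19 and TP53I3, all higher, and DHRS2, lower.

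**Figure D2:**
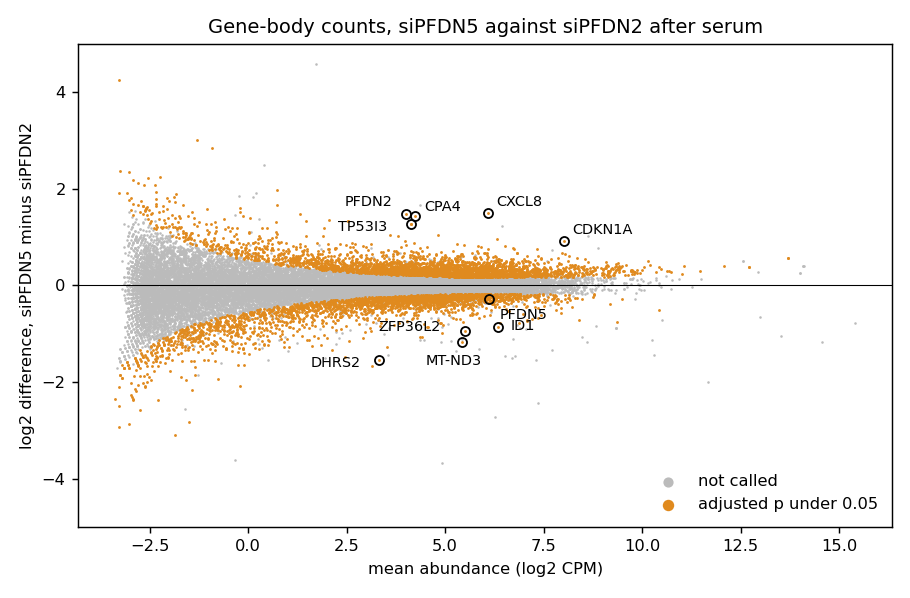
Log2 difference (siPFDN5 minus siPFDN2, vertical) against mean abundance (log2 CPM, horizontal) for 24916 genes, with genes at an adjusted p under 0.05 in orange. The called genes formed a narrow band on both sides of 0 at high abundance, and CXCL8, CPA4, TP53I3, PFDN2 and CDKN1A lay well above it and DHRS2 below.

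Among the protein-coding genes with a mean log2 CPM of at least 3 that were named for large differences, the highest was CXCL8, which encodes the neutrophil-attracting chemokine interleukin-8. CXCL8 stood at 110 and 108 CPM in the siPFDN5 libraries, 38.5 and 37.8 CPM in siPFDN2, and 46.0 and 38.7 CPM in siControl after serum. Both siPFDN5 libraries were above all 4 others. The difference was 1.49 ± 0.06 (SE, adjusted p = 2.4e-13), and CXCL8 intron counts differed by 1.84 (adjusted p = 1.9e-07). Before serum the same gene was at 1.91 and 1.87 CPM in siPFDN5 and 0.68 and 0.33 CPM in siPFDN2.

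CPA4, a secreted carboxypeptidase, was at 28.6 and 31.1 CPM in siPFDN5, 12.4 and 9.47 CPM in siPFDN2, and 15.4 and 16.6 CPM in siControl. The difference was 1.44 ± 0.11 (SE, adjusted p = 8.8e-06). Its exons differed by 1.63 and its introns by 0.79, and the test of intron share called that gap (-0.81, adjusted p = 0.00022). PTGS2, the inducible cyclooxygenase, was at 17.8 and 17.6 CPM in siPFDN5 against 7.95 and 8.88 CPM in siPFDN2, a difference of 1.05. GEM, a small GTPase induced by growth signals, was at 119 and 110 CPM against 58.5 and 58.3 CPM, a difference of 0.96. In siControl, PTGS2 (9.92 and 6.45 CPM) and GEM (63.5 and 62.4 CPM) lay near the siPFDN2 values. SUSD2, a membrane protein, and ARC, an immediate-early gene known from neurons, showed another order. SUSD2 was at 18.5 and 22.4 CPM in siPFDN5, 10.5 and 9.49 CPM in siPFDN2, and 16.1 and 21.8 CPM in siControl. ARC was at 21.0 and 23.5, 11.3 and 11.9, and 20.1 and 19.6 CPM in the same groups, so for both genes siPFDN2 was the group that stood apart from siControl.

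The stretches upstream of CXCL8 and CPA4 are shown because these 2 genes had the largest higher differences, outside the targets, among the 20 genes plotted by library. They are RefSeq sequences (GRCh38.p14, plus strand) of 250 bases ending just before the annotated start, chr4:73740319-73740568 and chr7:130292911-130293160. Capitals mark the AP-1 motif TGANTCA and the NF-kB motif GGAATTTCC, searched on both strands; the motifs do not overlap.
CXCL8: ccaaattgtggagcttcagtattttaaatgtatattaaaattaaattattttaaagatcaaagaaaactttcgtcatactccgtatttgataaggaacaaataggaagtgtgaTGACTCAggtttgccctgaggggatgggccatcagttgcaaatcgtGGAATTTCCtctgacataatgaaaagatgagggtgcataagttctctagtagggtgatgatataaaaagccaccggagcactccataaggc
CPA4: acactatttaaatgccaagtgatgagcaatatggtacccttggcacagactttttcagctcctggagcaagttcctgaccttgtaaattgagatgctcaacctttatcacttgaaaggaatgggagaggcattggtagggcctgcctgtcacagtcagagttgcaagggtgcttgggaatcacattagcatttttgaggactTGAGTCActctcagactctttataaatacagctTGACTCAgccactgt
In CXCL8, TGANTCA lay at -137 to -131 and GGAATTTCC at -91 to -83 from the start. In CPA4, TGANTCA lay at -48 to -42 and at -15 to -9. Of all 35116 promoters in the table, 6.57% held TGANTCA and 0.413% held GGAATTTCC in the same 250 bases. Of the 10 largest higher genes, 8 had a promoter entry, and 3 of these (CXCL8, CPA4 and FAS) held TGANTCA. Of the 10 largest lower genes 9 had an entry and SLC1A3 held it. A match describes the letters only.

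NF-kB cytokine and feedback genes were called higher in 13 of 21 tested and lower in none, with a median log2 difference of 0.33 against -0.0013 over all genes. CXCL8 was joined by CCL20 (1.53), CXCL1 (1.18), ICAM1 (0.86), BIRC3 (0.60) and CXCL3 (0.58). CXCL1, a chemokine related to CXCL8, was at 6.06 and 5.29 CPM in siPFDN5 against 2.42 and 2.51 CPM in siPFDN2. ICAM1, an adhesion molecule, was at 5.49 and 5.86 CPM against 3.21 and 3.0 CPM. The inhibitors NFKBIA (0.26), NFKBIE (0.47) and TNFAIP3 (0.36) and the subunits NFKB1 (0.17), NFKB2 (0.33) and RELB (0.38) were also called higher. CXCL2 (0.00), REL (0.05) and NFKBIZ (-0.04) were not called. In the 12-library fit 0 of the 21 passed, 7 passed in the 11-library fit, and 8 passed without siPFDN2 replicate 2.

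p53 target genes were called higher in 28 of 30 tested and lower in none, with a median of 0.46. TP53I3, an oxidoreductase gene, was at 27.2 and 26.4 CPM in siPFDN5, 10.8 and 11.1 CPM in siPFDN2, and 12 and 13.5 CPM in siControl. Its difference was 1.27 ± 0.08 (SE, adjusted p = 5.4e-10). FAS, the death receptor, was at 42.5 and 39.9 CPM against 19.5 and 19.7 CPM in siPFDN2 and 16.8 and 20.2 CPM in siControl, a difference of 1.05. CDKN1A, which encodes the cell-cycle inhibitor p21, was at 358 and 377 CPM against 187 and 195 CPM in siPFDN2 and 177 and 192 CPM in siControl. The difference of CDKN1A was 0.92 ± 0.06 (SE, adjusted p = 3.2e-09) over gene bodies and 1.21 over introns. For these 3 genes both siPFDN5 libraries lay above all siPFDN2 and siControl libraries, and siPFDN2 and siControl overlapped for FAS and CDKN1A.

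The rest of the p53 list included the stress cytokine GDF15 (0.81), TP53INP1 (0.80), PHLDA3 (0.74), the apoptosis genes BBC3 (0.72) and BAX (0.56), the stress sensors SESN1 (0.67) and SESN2 (0.35), and MDM2 (0.54), a ubiquitin ligase. MDM2 was at 508 and 461 CPM in siPFDN5, 330 and 327 CPM in siPFDN2, and 338 and 331 CPM in siControl. The DNA-repair genes POLH (0.50), DDB2 (0.45), RRM2B (0.37) and XPC (0.20) were called higher as well. TP53I11 (0.13) and PTP4A1 (-0.11) were not called. Over exons 25 of 30 were called higher. The 12-library fit called 1 (TP53I3) and the 11-library fit 22. Without siPFDN2 replicate 1 the count was 21, and without siPFDN2 replicate 2 it was 22.

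**Figure D3:**
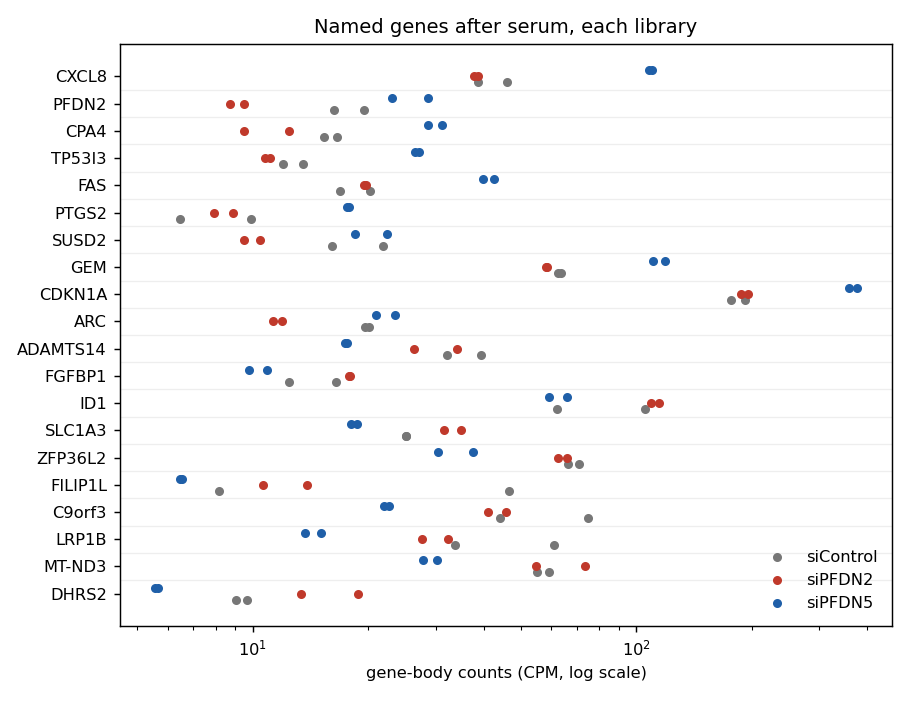
Gene-body counts (CPM, log scale) of PFDN2 and the other 19 genes named for the largest differences, each point 1 library after serum in siControl (grey), siPFDN2 (red) or siPFDN5 (blue). For CXCL8, TP53I3, FAS and CDKN1A the siPFDN5 points stand above both other groups, while for SUSD2 the siControl points (16.1 and 21.8 CPM) lie beside siPFDN5.

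The lowest of the same 20 genes was DHRS2, a mitochondrial short-chain dehydrogenase. DHRS2 was at 5.56 and 5.67 CPM in siPFDN5, 13.4 and 18.8 CPM in siPFDN2, and 9.68 and 9.06 CPM in siControl. The groups did not overlap, with siControl between them. The difference was -1.55 ± 0.17 (SE, adjusted p = 0.0023), and DHRS2 was at 3.73 and 3.78 CPM against 20.9 and 25.2 CPM before serum. ZFP36L2, an RNA-binding protein that promotes decay of AU-rich messages, was at 30.4 and 37.5 CPM in siPFDN5, 65.8 and 62.5 CPM in siPFDN2, and 66.2 and 70.9 CPM in siControl. Its difference was -0.94 ± 0.09 (SE, adjusted p = 1.1e-05) over gene bodies and -1.0 over exons. SLC1A3, a glutamate transporter, was at 18.7 and 18.0 CPM against 34.9 and 31.5 CPM in siPFDN2 and 25.1 and 25.0 CPM in siControl. SLC1A3 introns differed by -1.18. FGFBP1, which releases fibroblast growth factors from the matrix, was at 10.9 and 9.79 CPM against 18.0 and 17.8 CPM in siPFDN2. Its siControl values were 12.4 and 16.5 CPM.

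LRP1B, C9orf3, FILIP1L and ADAMTS14 completed the lower set, with MT-ND3 and ID1 described with their groups below. LRP1B, a very long gene for a lipoprotein-receptor relative, was at 15.1 and 13.7 CPM in siPFDN5, 32.4 and 27.6 CPM in siPFDN2, and 61.0 and 33.8 CPM in siControl. C9orf3, an aminopeptidase gene, was at 22.7 and 22, 45.9 and 41.0, and 74.9 and 44.0 CPM in the same groups. FILIP1L was at 6.54 and 6.47 CPM against 10.7 and 13.8 CPM in siPFDN2. The siControl replicates of FILIP1L were far apart, at 46.4 and 8.19 CPM. ADAMTS14, a metalloprotease that processes procollagen, was at 17.6 and 17.4 CPM against 34.1 and 26.4 CPM. The differences were -1.08 for LRP1B, -0.98 for C9orf3, -0.94 for FILIP1L and -0.80 for ADAMTS14. LRP1B, C9orf3 and FILIP1L did not pass in the 11-library fit (adjusted p = 0.21, 0.11 and 0.63), and each overlaps other annotated genes.

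BMP and TGF-beta response genes went both ways, 5 higher and 6 lower of 20 tested, with a median of -0.05. The lower genes were the DNA-binding inhibitors ID1 (-0.85), ID2 (-0.54), ID3 (-0.47) and ID4 (-1.25) and the inhibitory SMADs SMAD6 (-0.62) and SMAD7 (-0.41). ID1 was at 59.3 and 66.1 CPM in siPFDN5, 109 and 115 CPM in siPFDN2, and 61.9 and 105 CPM in siControl, whose replicates spanned most of the gap. ID2 was at 89.6 and 86.1 CPM against 122 and 129 CPM, with siControl at 75.4 and 127 CPM. The higher genes included TGFBI (1.66), PMEPA1 (0.56), LTBP2 (0.35) and JAG1 (0.18). The 12-library fit called none of the 20, and the 11-library fit called 2 higher and 1 lower.

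Actin and tubulin are prefoldin's best-known clients. Of their 17 genes, 10 were called higher and none lower, with a median of 0.28. ACTA2, a smooth-muscle actin, was at 11.7 and 12.5 CPM in siPFDN5, 6.72 and 6.55 CPM in siPFDN2, and 7.91 and 7.82 CPM in siControl. TUBB2A was at 22.8 and 24.8, 13.6 and 15.1, and 12.2 and 14.7 CPM. The abundant ACTB (0.28) and ACTG1 (0.30) differed less; ACTG1 was at 3305 and 3557 CPM against 2653 and 2842 CPM. TUBA1A had a log2 difference of 1.24 but was not called, its siPFDN5 replicates standing at 159 and 108 CPM against 46.9 and 64.6 CPM. Actin genes and tubulin genes have close copies, and how reads shared between copies were counted is not given in the sources used here. The 12-library fit called none, the 11-library fit called 5, and 4 passed without siPFDN2 replicate 1.

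Cytoskeletal targets of SRF, a transcription factor activated by serum and by actin dynamics, were called higher in 16 of 26 and lower in 1, with a median of 0.26. FHL2, a LIM-domain cofactor, was at 152 and 152 CPM in siPFDN5, 95.3 and 94.0 CPM in siPFDN2, and 111 and 105 CPM in siControl. The smooth-muscle genes CNN1 (1.39) and TAGLN (0.62), the integrin ITGA5 (0.45) and the tropomyosins TPM2 (0.38) and TPM4 (0.19) were higher. MYH9, a non-muscle myosin, was the lower one (-0.26). FLNA (-0.04), VCL (-0.07) and TLN1 (0.00) were not called. This list shares ACTB and ACTG1 with the actin list, and the 12-library fit called none of it, the 11-library fit 7 higher, and the fit without siPFDN2 replicate 1 7 higher. Intron counts of the SRF list went the other way, with 0 higher and 10 lower of 25 and a median of -0.28.

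Apart from the 2 targets, the prefoldin subunits VBP1 (0.30) and PFDN6 (0.24) were called higher, and PFDN4 (0.17) and PFDN1 (0.07) were not called. VBP1 was at 96.6 and 85.4 CPM in siPFDN5, 71.8 and 73.5 CPM in siPFDN2, and 56.6 and 68.0 CPM in siControl. Of 11 prefoldin-like and R2TP genes tested, which include PFDN2 and PFDN6, 7 were called higher and none lower, with a median of 0.23. They were led, after PFDN2, by PDRG1 (0.47), RUVBL2 (0.29) and PIH1D1 (0.24). URI1, the scaffold of the prefoldin-like complex, was not called (-0.15). Of the 8 TRiC subunits CCT3 (0.26), CCT7 (0.26) and CCT5 (0.25) were called higher and none lower. CCT3 was at 764 and 732 CPM against 613 and 617 CPM in siPFDN2 and 498 and 589 CPM in siControl. No TRiC subunit passed in the 12-library fit, in the 11-library fit or without siPFDN2 replicate 1, and 1 passed without siPFDN2 replicate 2. Of the prefoldin-like and R2TP genes only PFDN2, an siRNA target, passed in the 12-library fit, and 2 passed in the 11-library fit, PFDN2 included. The median of this list was 0.21 without siPFDN2 replicate 1 and 0.24 without siPFDN2 replicate 2.

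Several housekeeping lists showed small differences in 1 direction. Cytosolic ribosomal protein genes were called higher in 72 of 79 and lower in none, with a median of 0.33. RPL24 (0.51), RPS21 (0.51) and RPS18 (0.50) had the largest called differences, and RPL3 (0.12), RPL22 (0.11) and RPS2 (0.04) were not called. Nuclear genes of mitochondrial complex I, the first enzyme of the respiratory chain, were called higher in 27 of 38, with a median of 0.25 and NDUFA13 (0.62) in front. Proteasome subunit genes were called higher in 23 of 32, with a median of 0.24. No member of either list was called lower over gene bodies or exons. Over introns, proteasome genes had 0 higher and 4 lower of 30, complex I genes 4 higher and 3 lower of 37 with a median of -0.13, and ribosomal protein genes 15 higher and 0 lower of 68. The 12-library fit called none in these 3 lists, and the 11-library fit called 25, 13 and 8. Without siPFDN2 replicate 1 the counts were 35, 13 and 5. Without siPFDN2 replicate 2 they were 51, 22 and 19. Ribosomal protein genes have many processed pseudogenes, which can share reads with them.

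The difference also moved with gene length. Over 5 equal bins of 3072 protein-coding genes, the median log2 difference of gene-body counts was 0.12 in genes of up to 10.6 kb, 0.059, 0.012, -0.028, and -0.079 in genes over 103 kb. In the shortest bin 888 genes were called higher and 143 lower, and in the longest 194 were higher and 608 lower. Over exons the medians ran from 0.079 to -0.027, a smaller range in the same direction. The median gene body was 5.38 kb for the ribosomal protein, 13.8 kb for the complex I and 16.8 kb for the proteasome genes, and the part of gene length in their counts was not tested.

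**Figure D4:**
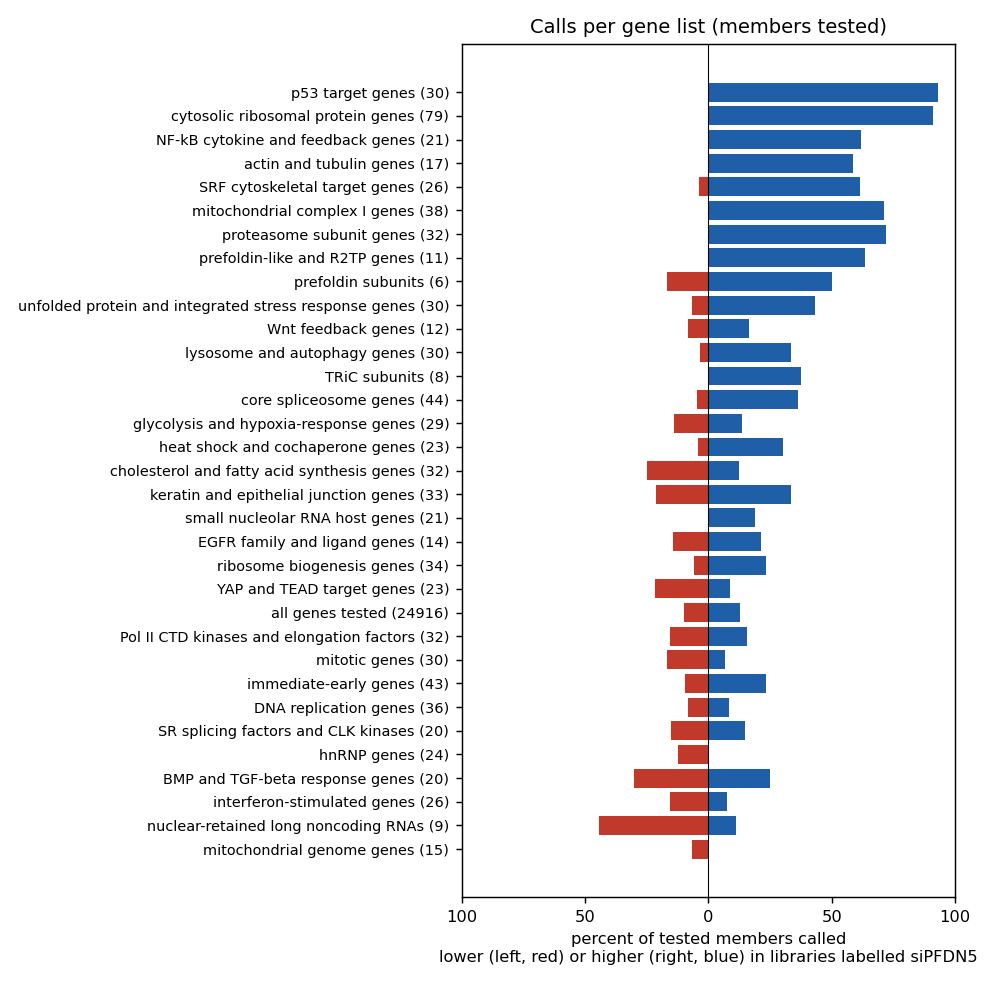
Percent of tested members of each gene list called higher (right, blue) or lower (left, red) in siPFDN5, with the number tested in brackets; lists are ordered by median log2 difference. Over all 24916 genes 12.6% were higher and 10.1% lower, against 28 of 30 p53 targets and 72 of 79 ribosomal protein genes called higher. Calls were more frequent in some classes of genes. At 8 CPM or more 32.6% were called in either direction, and 888 of 3072 protein-coding genes in the shortest length bin were higher.

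**Figure D5:**
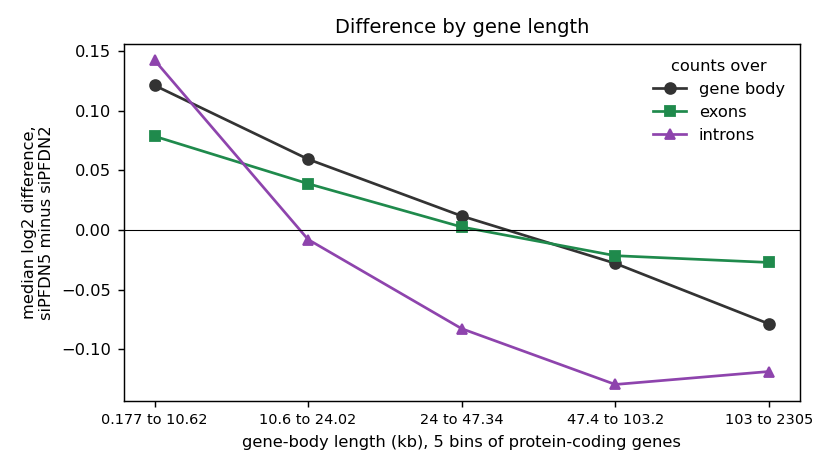
Median log2 difference (siPFDN5 minus siPFDN2) of protein-coding genes in 5 bins of gene-body length, from counts over gene bodies, exons and introns; a point is the median of the genes tested in that bin. Gene-body medians went from 0.12 in the shortest bin to -0.079 in the longest.

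The 15 listed genes of the mitochondrial genome, its tRNA genes not among them, had a median of -1.31, but MT-ND3 alone was called lower. Of the 22 mitochondrial tRNA genes tested 2 were called higher and 7 lower, with a median of -0.75. MT-ND3, a complex I subunit, was at 30.2 and 27.8 CPM in siPFDN5, 73.7 and 54.9 CPM in siPFDN2, and 59.3 and 55.1 CPM in siControl, a difference of -1.17 ± 0.18 (SE, adjusted p = 0.027). MT-CO1, a subunit of cytochrome oxidase, was at 213 and 289 CPM against 695 and 345 CPM, so the siPFDN2 replicates differed from each other more than the lower of them did from siPFDN5. The siControl libraries held 576 and 676 CPM of MT-CO1. Without siPFDN2 replicate 1, the library with 8.70% mitochondrial counts, 8 of the 15 were called lower with a median of -0.66, and without siPFDN2 replicate 2 12 were, with a median of -1.76. With either siPFDN5 replicate left out none was called.

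Counts outside exons made up 17.2% and 14.8% of gene-body counts in the siPFDN5 libraries and 20.9% and 19.3% in the siPFDN2 libraries. The means were 16.0% ± 1.70 and 20.1% ± 1.16 (SD, n = 2 each), a difference of -4.06 percentage points. An exact two-sided permutation test gave p = 0.33, the smallest value that 2 against 2 libraries allow. In siControl after serum the values were 20.6% and 16.2%, which overlap both groups. Before serum the order was the other way, with 22.8% and 25.9% in siPFDN5 against 16.2% and 16.1% in siPFDN2. The change in this share between the time points was not tested. Exon counts called 4121 of 22198 genes (18.6%), 2347 higher (10.6%) and 1774 lower (7.99%). Intron counts, scaled by their own totals, called 4630 of 17287 (26.8%), 2702 higher (15.6%) and 1928 lower (11.2%). When the TMM adjustment was dropped and intron totals alone set the scale, 223 genes were called. Of these, 99 were higher and 124 were lower. Under upper-quartile scaling the intron counts called 3285 genes higher, while 1277 were lower. With all 12 libraries 1 intron call remained, and with the 6 libraries after serum 0 did (2038 at an unadjusted p under 0.05).

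Gene-body counts include intron counts, so the directions of the 20 genes plotted by library are partly shared between the measures by construction. Of the 14 with enough intron counts, 12 were called, each in its gene-body direction, and the other 6 were not tested. The exceptions were PFDN2 and ZFP36L2, with intron differences of 0.07 and 0.39 (adjusted p = 0.82 and 0.51). For PFDN2 the groups overlapped in introns, at 12.3 and 11.4 CPM of intron counts against 12.5 and 10.4 CPM.

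A test of the ratio of intron to exon counts, in 3197 genes that overlap no other, called 425 (13.3%), 79 with a higher (2.47%) and 346 with a lower (10.8%) intron share in siPFDN5. The median log2 difference of the ratio was -0.13. With overlapping genes included, 1439 were higher and 1392 lower, with a median of -0.02. Among genes called with at least 100 intron and 100 exon counts on average, MKNK2, a kinase that phosphorylates the cap-binding factor eIF4E, had the largest gain of intron share (1.28 ± 0.19, SE, adjusted p = 3.4e-08). Its introns were at 12 and 14.1 CPM in siPFDN5 against 7.52 and 6.07 CPM, while its exons were at 62.6 and 69.9 CPM against 81.8 and 83.0 CPM. Intron and exon CPM are on separate scales, so they compare groups but not introns with exons. EPPK1, which encodes the cytolinker epiplakin, and BEND3, a chromatin repressor, gained by 1.03 and 1.01. EMP1, an epithelial membrane protein, had the largest loss among these genes (-0.99 ± 0.16, SE, adjusted p = 2.4e-07), with introns at 16.2 and 18.2 CPM against 46.9 and 36.4 CPM and exons at 79.0 and 71.9 CPM against 94.7 and 85.8 CPM. ATP6V0D1, a subunit of the vacuolar proton pump, and MT1E, a metallothionein, lost by -0.98 and -0.96. These calls rested on both siPFDN5 libraries, since 0 of the genes passed without siPFDN5 replicate 1 (609 at an unadjusted p under 0.05) and 7 without siPFDN5 replicate 2. With 1 total for introns and exons the median moved to -0.60 and 1817 of 1824 calls were lower.

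Immediate-early genes, the first to respond to serum, were called higher in 10 of 43 and lower in 4, with a median of -0.02. EGR3 (0.67), HBEGF (0.58), CTGF (0.55) and ATF3 (0.44) were higher, and KLF4 (-0.37), DUSP1 (-0.31), TRIB1 (-0.27) and KLF6 (-0.22) lower. FOS (-0.68), EGR1 (-0.55) and FOSB (-0.51) were not called. The counts of this list moved with the libraries used, from 0 in either direction with 12 libraries to 17 higher and 7 lower without siPFDN5 replicate 1, 13 and 9 without siPFDN5 replicate 2, 6 and 5 without siPFDN2 replicate 1, and 6 and 2 without siPFDN2 replicate 2. Of the 14 EGFR family and ligand genes 3 were higher, among them the ligands HBEGF and AREG (0.47), and 2 lower, LRIG3 (-0.29) and the ligand EPGN (-0.94). YAP and TEAD targets had 2 higher of 23, ANKRD1 (1.97) and CTGF, and 5 lower, led by IGFBP3 (-0.65). Over exons the YAP and TEAD list had 5 higher and 4 lower of 23, and over introns 2 higher and 8 lower of 21. Wnt feedback genes had 2 higher of 12, DKK1 (0.57) and NOTUM (0.35), and 1 lower, ZNRF3 (-0.44). Over all genes tested 12.6% were called higher and 10.1% lower.

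Genes of the unfolded protein and integrated stress responses were called higher in 13 of 30 and lower in 2, with a median of 0.17. DDIT3 (0.61), a stress transcription factor, PDIA4 (0.60), CHAC1 (0.50), HERPUD1 (0.49) and the endoplasmic reticulum chaperone HSPA5 (0.41) were higher. SLC7A11 (-0.49), the cystine transporter, and DDIT4 (-0.38) were lower. Heat shock and cochaperone genes had 7 higher of 23 and 1 lower, with HSPA4L at 0.67 and HSPH1 at -0.19. Lysosome and autophagy genes had 10 higher of 30, among them MAP1LC3B (0.41), and 1 lower, BNIP3 (-0.27). Cholesterol and fatty acid synthesis genes had 4 higher and 8 lower of 32. The lower ones included FASN (-0.72), SCD (-0.51) and ACACA (-0.34), which act in fatty acid synthesis. Glycolysis and hypoxia-response genes had 4 higher and 4 lower of 29. The shares over all genes tested were 12.6% higher and 10.1% lower. The 12-library fit called none of these 5 lists. Without siPFDN2 replicate 1, the higher calls fell to 6 in the stress-response list, 3 in the heat shock list and 4 in the lysosome list, and the cholesterol and fatty acid list held 0 higher and 3 lower.

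Keratin and epithelial junction genes had 11 higher and 7 lower of 33. KRT17 (1.08) and KRT18 (0.40) were higher, and KRT86 (-0.75), KRT7 (-0.66) and KRT23 (-0.57) lower. Small nucleolar RNA host genes had 4 higher of 21 and none lower. SNHG19 was at 24.5 and 29.4 CPM in siPFDN5, 10.9 and 11.1 CPM in siPFDN2, and 8.48 and 9.35 CPM in siControl, a difference of 1.28, and SNHG9 differed by 0.79. Core spliceosome genes had 16 higher and 2 lower of 44, led by SF3B5 (0.54) and SNRPD2 (0.52), while PRPF8 was lower (-0.51). Ribosome biogenesis genes had 8 higher and 2 lower of 34. Over all genes 12.6% were called higher and 10.1% lower. The keratin and junction list also holds the carboxypeptidase gene CPA4, its only call in the 12-library fit. That fit also called 1 host gene, SNHG19, and no spliceosome or biogenesis gene. The 11-library fit called 6, 4, 9 and 1 in the keratin and junction, host, spliceosome and biogenesis lists. Over introns, keratin and junction genes had 2 higher and 11 lower of 27, and host genes 7 and 0 of 18. Spliceosome genes had 2 and 3 of 42, and biogenesis genes 2 and 0 of 33.

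The remaining groups were split between the directions or held few calls, where 12.6% of all genes tested were called higher and 10.1% lower. DNA replication genes had 3 higher and 3 lower of 36, and mitotic genes 2 higher and 5 lower of 30. SR splicing factors and CLK kinases had 3 in each direction of 20, hnRNP genes 0 higher and 3 lower of 24, and Pol II CTD kinases and elongation factors 5 in each direction of 32. Interferon-stimulated genes had 2 higher and 4 lower of 26, with IFIT2 at -0.77 and ISG15 at 0.50. Nuclear-retained long noncoding RNAs had 1 higher, TUG1 (0.24), and 4 lower of 9, led by KCNQ1OT1 (-0.59). Over exons this list had 2 higher and 1 lower of 9, and the 11-library fit of gene bodies called 0. MALAT1 (-0.84) and NEAT1 (-0.66) were not called.

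Messages with a match to an siRNA seed in the 3′ UTR were compared with those without, over exon counts. Of 2467 genes with the siPFDN5 match 216 were called higher and 342 lower, with a median of -0.031. Of 11601 without it 1642 were higher and 961 lower, with a median of 0.020. Of 114 genes with the siPFDN2 match 22 were higher and 6 lower, with a median of 0.073, against 0.0095 in 13954 genes without it. Of 200 genes with the siControl match 23 were higher and 28 lower. The part of seed matches in the calls was not tested.

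Whether the difference was particular to cells after serum was tested as the siPFDN5 minus siPFDN2 difference after serum minus that before it, over all 12 libraries. The edgeR test called 0 of 27915 genes, with 5122 at an unadjusted p under 0.05 and a smallest adjusted p of 0.23. Of the 20 genes with the largest differences, 16 had the same sign before serum in the 12-library fit, among them CXCL8 (1.93), CPA4 (1.43) and DHRS2 (-2.62). Some lists had medians of the other sign before serum: actin and tubulin genes stood at -0.29 before against 0.28 after, the SRF list at -0.28 against 0.26, prefoldin-like and R2TP genes at -0.26 against 0.23, and nuclear-retained long noncoding RNAs at 0.51 against -0.46. CDKN1A differed by 0.33 before serum and TP53I3 by 0.67, against 0.92 and 1.27 after it (adjusted p of the change = 0.23 for both). The result turned on 1 pair of libraries: 11681 genes passed without siPFDN2 before serum replicate 1, and 25 without its replicate 2. Those replicates were the ones with an SD of 0.668 between them.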

How the data were processed

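Gene-body and exon counts were made by the authors with featureCounts 1.5.2 on HISAT2 alignments, with the Ensembl release 87 annotation, per the file headers and the submitters' processing notes (GRCh38.p7). The deposited estimated counts per transcript came from kallisto 0.43, per the submitters' processing notes. Strand handling is not given in the sources used here. In each of the count tables, 6 columns matched no sample of the series and were not used. Intron counts are gene-body minus exon counts.

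The members and the gene lists were chosen with earlier results of these data known, so the lists are described by counts and medians only. Tests used edgeR 4.0.16 (R 4.3.3, limma 3.58.1) quasi-likelihood fits to the 4 libraries compared, with TMM scaling, edgeR's low-count filter and Benjamini-Hochberg adjustment over all genes tested. The intron-share test used genes overlapping no other with at least 20 intron and 20 exon counts on average. The change between time points was fitted to all 12 libraries. DESeq2 1.42.0, other scalings, library sets, filters, a GC correction, a replicate block and leaving out each replicate were alternatives. The scripts were tested on simulated data.

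Named genes were PFDN2, PFDN5, the 10 protein-coding genes per direction with the largest log2 difference (mean log2 CPM of at least 3, called with the same sign in gene bodies and exons, groups not overlapping), 3 per direction for intron share (at least 100 intron and 100 exon counts), and list members. Some list members are not reported here. Gene symbols came from the GENCODE release 29 annotation, and seed matches were searched in the 3′ UTRs of 19047 genes. PCR duplicates cannot be told from separate molecules in these counts.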

Additional observations from a re-analysis of the deposited data

Results flagged for a closer look

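For 3 of the named genes every siPFDN5 library lay below every siPFDN2 library after serum and above them before serum. The change in the log2 difference between the time points was -2.15 for MT-ND3, -1.55 for LRP1B and -2.67 for FILIP1L. None of these changes passed the edgeR test of the change (adjusted p = 0.23 for each). MT-ND3 was at 52.1 and 60.0 CPM in siPFDN5 and 37.1 and 19.1 CPM in siPFDN2 before serum. LRP1B was at 44.0 and 27.8 CPM against 25.1 and 25.8 CPM, and FILIP1L at 31.2 and 18.6 CPM against 6.38 and 8.38 CPM.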

How the results depend on the processing

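Which libraries set the spread mattered most. Gene-body calls numbered 5 with 12 libraries, 208 with the 6 after serum, 1224 with 11, and 154 with 12 and the GC trend removed, against 5661. They numbered 3359 under library-size scaling and 3223, of 16166 genes tested, from estimated counts per transcript. In the transcript estimates 222 of the genes called from gene bodies had the other sign. Exon calls were 5, 1722 and 2033 with 12, 6 and 11 libraries and 2701 by DESeq2, against 4121. Intron calls were 1, 0 and 11 with those library sets, 223 when scaled by intron totals alone and 2621 by DESeq2, against 4630. Intron-share calls were 1824 with 1 total for introns and exons and 2831 of 13453 genes with overlapping genes included, against 425 of 3197. PFDN5 differed by -0.26, -0.27 and -0.26 with 12, 6 and 11 libraries and by -0.25 with 12 and the GC trend removed, with adjusted p of 0.68, 0.16, 0.094 and 0.28; PFDN2 passed in every alternative. The cause of these shifts was not tested; the biological coefficient of variation was 18.1% with 12 libraries against 6.62% with 4. Leaving out 1 replicate at a time, where the lone sample is assumed to vary like the others, gave 2401 to 5749 gene-body, 1174 to 4660 exon, 1339 to 4639 intron, 0 to 471 intron-share and 0 to 11681 time-change calls, and a library intron difference of -5.26 to -2.86 points, the last chosen after seeing the data. Replicate numbers are not said to pair samples, and the replicate 1 minus 2 deviations correlated at r = 0.10 across 12325 genes. With a replicate block the calls were 6642, 5934, 5133, 588 and, for the time change, 1 against 0; immediate-early genes had 11 higher and 13 lower, against 10 and 4. Rare RNAs were called less often. Of genes under 1 CPM 9.24% were called, at a median absolute log2 difference of 1.07. Of genes at 8 CPM or more 32.6% were called, at 0.29. The part of read depth in these rates was not tested.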
